A study of Mus musculus with 16 samples.

Results

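Atf3 and 9 relatives of the AP-1 family (Fos, Fosb, Fosl1, Fosl2, Jun, Junb, Jund, Jdp2 and Batf3) were followed in differentiating mESCs exposed to a hawthorn extract or to an eluate made from it. The genes were chosen by name, with earlier results of these data known. The array carried 60273 probes for 45072 genes, where a probe without a gene name was counted under its own identifier. Of these probes 11 represented the 10 genes. The gene name field of the scanner files held 1 of the names as such, for a second Junb probe, and the other 10 probes were recognised by their RefSeq transcript accession, 1 for each gene. All 16 samples came from CGR8-Myh6-GFP cells, a mouse embryonic stem cell line that carries a green fluorescent reporter under the promoter of the cardiac myosin gene Myh6. The cells differentiated spontaneously towards cardiomyocytes, without LIF, and received a treatment on day 4. Samples were taken after 6 h and 24 h. At each time 2 samples had received DMSO as vehicle, 3 had received WS1442 (0.25 mg/ml), an ethanolic extract of hawthorn leaves with flowers, and 3 the MeOH eluate (0.1 mg/ml), a methanol eluate of that extract enriched in oligomeric procyanidins. The doses differed, so a comparison of the treatments is one of these preparations at these doses.

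AP-1 is a dimer of basic leucine zipper (bZIP) proteins that binds short DNA elements and activates or represses transcription. A Fos protein needs a Jun protein as partner, whereas Jun proteins also pair with each other and with ATF proteins. Jun is activated by the kinase JNK, and the genes Fos, Fosb, Jun and Junb are classical immediate early genes that growth factors and stress switch on for a short time. Atf3 is a stress-inducible bZIP protein that pairs with Jun proteins and often acts as a repressor. Jdp2 and Batf3 are small members that pair with Jun proteins and lack the usual activation domain.

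Signals are given as log2 of the intensity after quantile normalization over the 16 arrays, a relative scale on which a difference of 1 is a doubling. On each array 55.1% to 63.0% of the gene spots were well above background (median 58.9%), and RNA integrity numbers were 8.6 to 10. Replicates of a group correlated at 0.9838 to 0.995 over the 29272 genes tested, which had passed a filter on dim probes. All 8 samples of a time point lay on 1 slide, so a level at 24 h was never compared with one at 6 h, only each treatment with its own DMSO samples. The labels number the replicates without saying that they were separate cultures, so the p-values measure the spread between these samples. Markers of early mesoderm (6 of 6 genes) and cardiac progenitors (7 of 8) were measurable, and Myh6 itself was not well above background throughout any group. In such bulk samples a fall in the share of cells that express a gene and a fall in RNA per cell cannot be told apart.

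Each of the 10 genes had 1 probe that was well above background and not saturated on all 16 arrays, and all of them entered the test of 29272 genes. The second Junb probe (chr8:87496635-87496694, minus strand, build mm9) was at 1.27 to 2.34 and not well above background on any array. The scanner files give no position for the other probes. By the RefSeq annotation of the mouse genome, 6 members lie in pairs on a chromosome. Fos and Jdp2 are neighbours on chromosome 12 with 0 protein-coding genes between their starts. Batf3 and Atf3 lie on chromosome 1 with 1 such gene (Fam71a) between them. Jund and Junb share chromosome 8 with 163 genes between them.

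The sequences before the annotated starts were searched on both strands for elements that AP-1 and its upstream factors use, and 3 members held a match. RefSeq promoter windows (build GRCm38.p6, 250 bases before to 50 after the start) were at hand for 9 members, in 11 windows of which Jdp2 had 3. The 250 bases before the start are shown 5′ to 3′ on the gene's own strand, with the match in capitals, because Atf3, Jun and Jdp2 are the members that held one.
Atf3, chr1:191183334-191183583, minus strand: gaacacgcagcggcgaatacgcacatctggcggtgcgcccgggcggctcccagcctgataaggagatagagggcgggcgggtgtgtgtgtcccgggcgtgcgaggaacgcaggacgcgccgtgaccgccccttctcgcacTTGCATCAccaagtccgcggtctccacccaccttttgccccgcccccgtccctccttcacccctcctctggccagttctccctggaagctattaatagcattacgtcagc
Jun, chr4:95052223-95052472, minus strand: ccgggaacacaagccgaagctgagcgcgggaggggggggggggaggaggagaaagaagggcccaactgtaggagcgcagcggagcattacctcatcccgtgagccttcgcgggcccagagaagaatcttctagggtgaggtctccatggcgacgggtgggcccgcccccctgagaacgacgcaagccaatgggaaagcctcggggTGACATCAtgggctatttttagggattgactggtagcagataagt
Jdp2, chr12:85599166-85599415, plus strand: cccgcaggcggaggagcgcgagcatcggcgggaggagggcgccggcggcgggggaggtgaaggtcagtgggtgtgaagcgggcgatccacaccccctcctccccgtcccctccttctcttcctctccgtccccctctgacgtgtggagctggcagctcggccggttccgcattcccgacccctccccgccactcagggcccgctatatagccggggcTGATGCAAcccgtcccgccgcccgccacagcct
The capitals in Jun, at positions -45 to -38 from the start, are the variant AP-1 element TGACATCA, present in 3.62% of 32851 promoter windows of the same length. The capitals in Atf3 (positions -110 to -103) and Jdp2 (positions -33 to -26) match the ATF4-C/EBP element TGATGNAA, which 3.97% of windows hold. The AP-1 element TGANTCA (7.81% of windows), the CRE TGACGTCA (1.79%) and the CArG box bound by SRF (1.63%) occurred in 0 of the members' windows. These are matches of letters, and no binding was measured. The search covered only these windows and letters, so elements farther upstream or with another letter were not looked for. Their absence here does not mean that a gene lacks them.

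Atf3 was higher with both treatments at both time points, and the difference from DMSO was larger at 24 h. It was included because this pattern was already known, so its values against DMSO are a description without a test. At 6 h the signal of Atf3 was 10.08 and 10.12 with DMSO, 10.40, 10.59 and 10.62 with WS1442 and 10.83, 10.88 and 10.88 with MeOH eluate. At 24 h it was 9.94 and 9.97 with DMSO, 11.29, 11.24 and 11.33 with WS1442 and 11.54, 11.48 and 11.65 with MeOH eluate. At either time the groups did not overlap and stood in the order DMSO, WS1442, MeOH eluate. The log2 (fold change) against DMSO was 0.44 (SE 0.07) at 6 h and 1.33 at 24 h with WS1442, and 0.76 and 1.60 with MeOH eluate. The effect at 24 h thus exceeded that at 6 h by 0.89 for WS1442 and by 0.84 for MeOH eluate. The direct comparison of the treatments was not part of the choice. Atf3 was higher with MeOH eluate than with WS1442 by 0.32 at 6 h (adjusted p = 0.00369, limma) and by 0.27 at 24 h (adjusted p = 0.00672). With arrays scaled to their 75th percentile in place of quantile normalization the difference at 6 h was 0.20 (adjusted p = 0.0509).

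**Figure D1:**
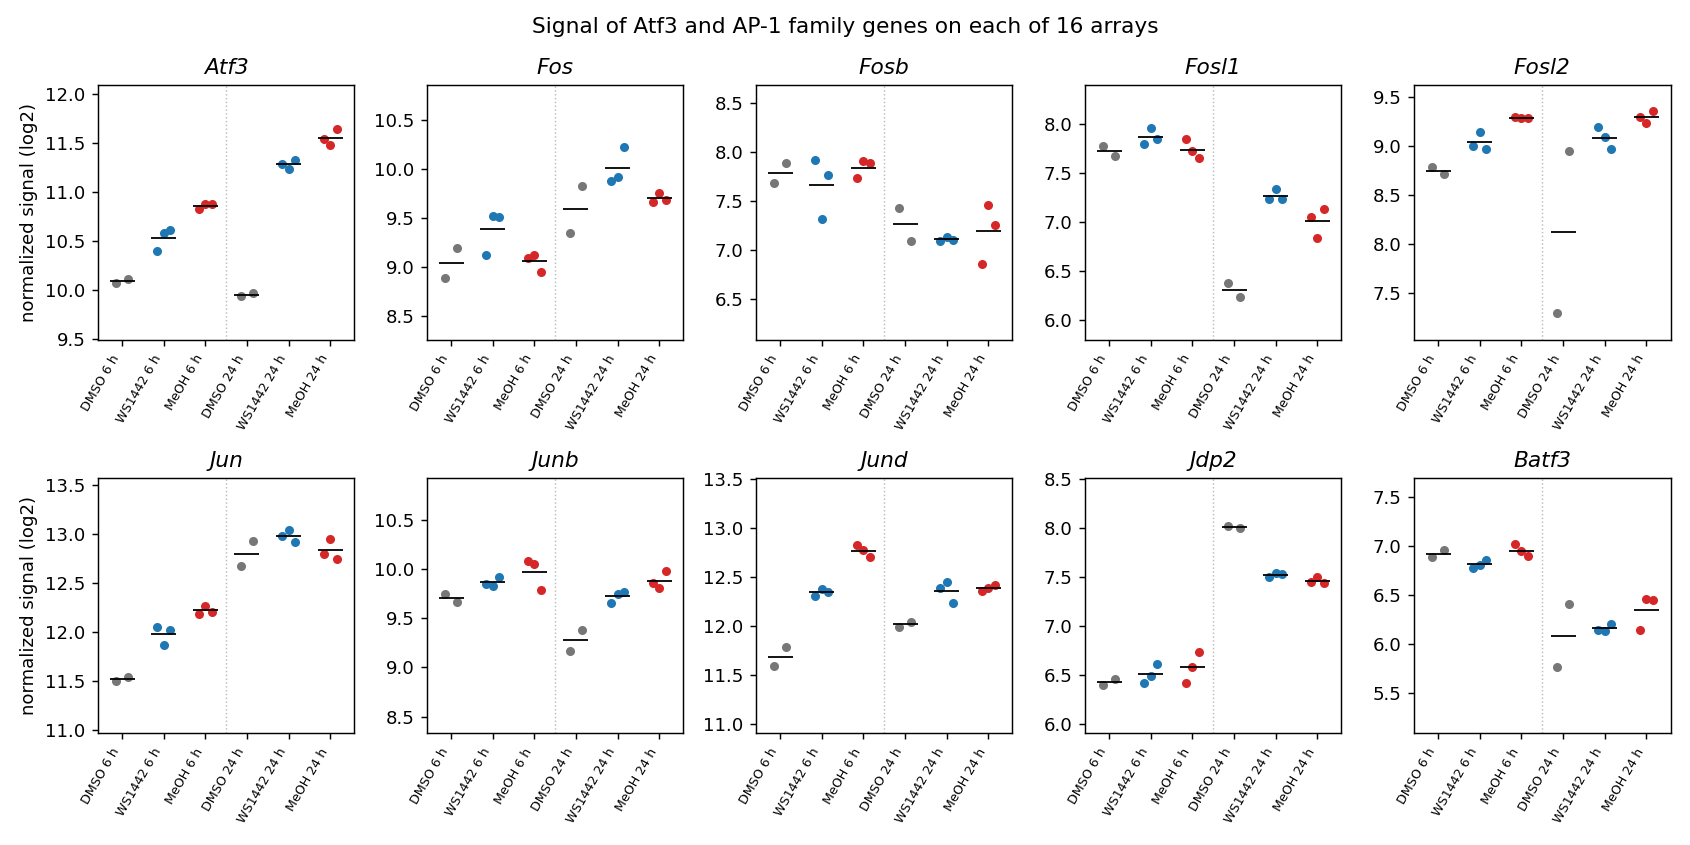
Normalized log2 signal (vertical axis, each panel spanning the same range) of the 10 genes on each array (points) and the mean of each group (lines), for DMSO (grey), WS1442 (blue) and MeOH eluate (red) at 6 h (left of the dotted line) and 24 h (right). Atf3 stands in the order DMSO, WS1442, MeOH eluate at both times, Jun and Jund are separated most at 6 h, and Jdp2 is lower in treated samples at 24 h.

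At 6 h the RNA of the Jun genes Jun and Jund rose beside that of Atf3. With WS1442, 2 of the 9 genes other than Atf3 passed an adjusted p of 0.05, both upward, where 5.61% of all genes tested passed, 4.15% upward and 1.46% downward. With MeOH eluate 2 of the 9 passed, both upward, where 17% of all genes passed, 8.65% upward and 8.37% downward. The median log2 (fold change) of the 9 genes was 0.15 and 0.15, against -0.01 and 0 for all genes. WS1442 and MeOH eluate share their DMSO samples, so that the results for one are not independent of those for the other. Counts without overlap are given without a test, and Atf3, chosen for its rise, is counted among the members above DMSO. With WS1442 6 members lay above DMSO without overlap and 1 below (35.9% of all genes did not overlap). With MeOH eluate 5 lay above and 0 below (50.2% of all genes).

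Jun, the founding member and a direct substrate of JNK, had signals of 11.50 and 11.54 with DMSO, 12.05, 11.87 and 12.02 with WS1442 and 12.19, 12.27 and 12.21 with MeOH eluate at 6 h. The groups did not overlap. The rise was 0.46 with WS1442 (SE 0.08, adjusted p = 0.00437) and 0.70 with MeOH eluate (adjusted p = 2.62e-05). Without DMSO 6 h replicate 1 the rise with WS1442 was 0.44 with an adjusted p of 0.0669. Jun is the member whose upstream sequence holds the variant AP-1 element shown above, and a part of that element in the rise was not tested.

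Jund, which most cells express without a stimulus, was at 11.59 and 11.78 with DMSO, at 12.30, 12.38 and 12.34 with WS1442 and at 12.82, 12.77 and 12.70 with MeOH eluate at 6 h. Every treated sample lay above both DMSO samples, and every MeOH eluate sample above every WS1442 sample. It rose by 0.65 with WS1442 (SE 0.07, adjusted p = 0.000109) and by 1.08 with MeOH eluate (adjusted p = 1.2e-07), the largest change among the members at 6 h. Junb, a relative that can weaken the action of Jun, was at 9.75 and 9.67 with DMSO and at 10.09, 10.05 and 9.79 with MeOH eluate, a difference of 0.26 (adjusted p = 0.0547). Without MeOH eluate 6 h replicate 3 it was 0.36 (adjusted p = 0.0105).

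The Fos genes did not pass the test at 6 h. The signal of Fos was 8.89 and 9.20 with DMSO, 9.13, 9.52 and 9.51 with WS1442 and 9.10, 9.13 and 8.95 with MeOH eluate. The groups overlapped. The difference of Fos from DMSO was 0.34 with WS1442 (95% interval 0.02 to 0.66, adjusted p = 0.218) and 0.02 with MeOH eluate (-0.30 to 0.34, adjusted p = 0.961). Fosb, a close relative of Fos, differed by -0.12 (-0.50 to 0.26) and 0.06 (-0.32 to 0.44), and Fosl1 by 0.14 (-0.07 to 0.36) and 0.02 (-0.20 to 0.24). With MeOH eluate the upper bounds of Fos, Fosb and Fosl1 lie below the 0.70 measured for Jun.

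Fosl2, a Fos relative without a strong activation domain, was at 8.78 and 8.71 with DMSO, 9.00, 9.14 and 8.97 with WS1442 and 9.29, 9.28 and 9.28 with MeOH eluate at 6 h. The groups did not overlap, yet the difference of 0.54 with MeOH eluate had an adjusted p of 0.235. The spread that the fit assigns to Fosl2 comes mostly from the DMSO samples of 24 h, which were at 7.29 and 8.95. With only the arrays of 6 h the same difference had an adjusted p of 0.0023, and without either DMSO sample of 24 h one of 0.000293 or 0.000309. With WS1442 the difference was 0.29 (adjusted p = 0.654), and 0.039 or 0.04 were the adjusted p-values without either of these samples. Jdp2 and Batf3 differed from DMSO by -0.11 to 0.15 at 6 h and did not pass.

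**Figure D2:**
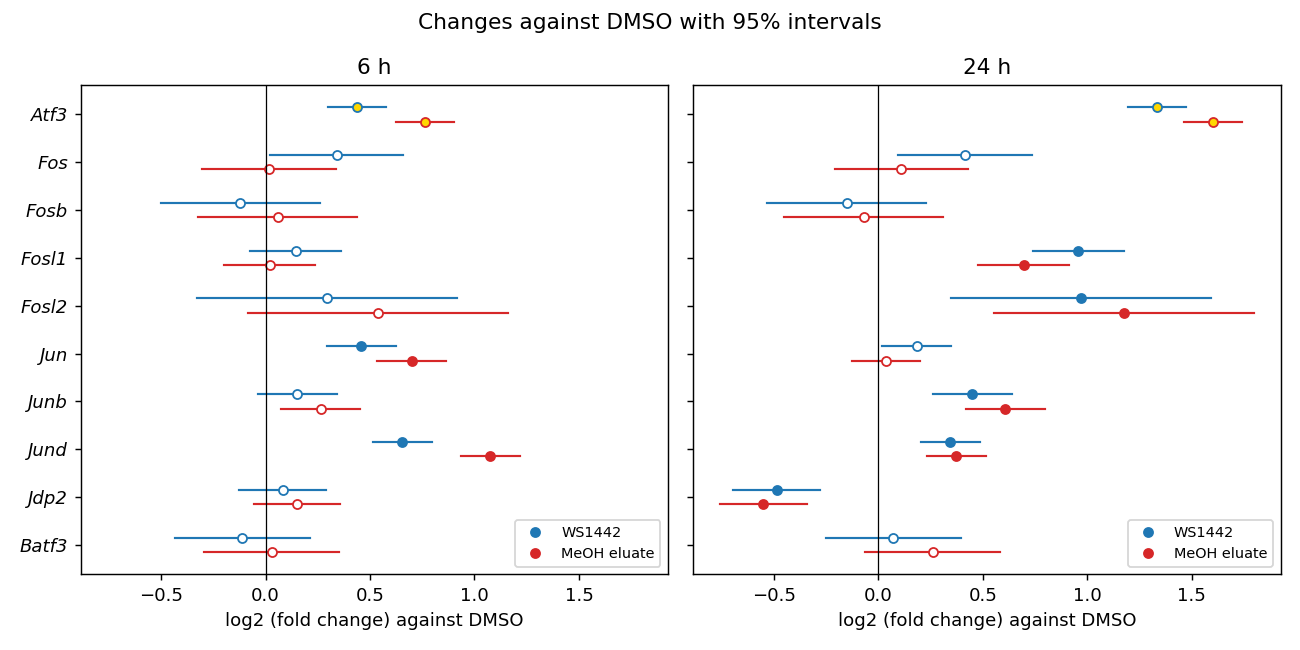
Log2 (fold change) against DMSO (horizontal axis) of each gene at 6 h (left) and 24 h (right) with 95% intervals, for WS1442 (blue) and MeOH eluate (red). Filled points passed an adjusted p of 0.05, open points did not, and yellow points mark Atf3, for which no test is given. At 6 h Jun and Jund are the filled points, and at 24 h these are Fosl1, Fosl2, Junb, Jund and, below 0, Jdp2.

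At 24 h members from both the Fos and the Jun branch differed from DMSO. Fosl1, Fosl2, Junb and Jund were higher, Jdp2 was lower, and Jun no longer passed. With WS1442 as with MeOH eluate 4 of the 9 genes other than Atf3 were higher and 1 lower, where 24.7% and 18.2% of all genes passed. Of all genes, 12.9% rose and 11.8% fell with WS1442, and 9.62% rose and 8.58% fell with MeOH eluate. The median of the 9 was 0.34 and 0.26, against 0.05 and 0.01 for all genes. Without a test, and with Atf3 again counted among those above, 6 members lay above DMSO without overlap and 1 below with WS1442. Of all genes 51.2% did not overlap. With MeOH eluate 5 lay above and 1 below, against 43.6% of all genes.

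Fosl1 (Fra-1), a Fos relative that AP-1 itself can induce, was at 6.38 and 6.23 with DMSO, 7.23, 7.33 and 7.23 with WS1442 and 7.05, 6.83 and 7.13 with MeOH eluate. Every treated sample lay above both DMSO samples. It rose by 0.96 with WS1442 (SE 0.10, adjusted p = 2.79e-05) and by 0.70 with MeOH eluate (adjusted p = 0.000206). These rises were 0.64 and 0.47 with the normexp background correction and remained past the threshold (adjusted p = 4.27e-05 and 0.000354).

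Junb was at 9.17 and 9.38 with DMSO, 9.66, 9.75 and 9.77 with WS1442 and 9.86, 9.81 and 9.98 with MeOH eluate at 24 h. The treated samples lay above DMSO without overlap, and the rise was 0.45 (adjusted p = 0.00202) and 0.61 (adjusted p = 0.000196). Jund was at 11.99 and 12.04 with DMSO, 12.39, 12.45 and 12.23 with WS1442 and 12.35, 12.39 and 12.42 with MeOH eluate. It was still higher than DMSO, by 0.34 (adjusted p = 0.00174) and 0.37 (adjusted p = 0.00097). The values of both treatments overlapped for Jund at 24 h, unlike at 6 h.

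Fosl2 was at 9.19, 9.09 and 8.97 with WS1442 and at 9.29, 9.23 and 9.35 with MeOH eluate at 24 h, against the 7.29 and 8.95 of DMSO. Its rise of 0.97 (SE 0.29, adjusted p = 0.0249) and 1.17 (adjusted p = 0.0103) rests on DMSO 24 h replicate 1. Without that sample the rise was 0.14 with WS1442 (adjusted p = 0.418) and 0.34 with MeOH eluate, where the highest adjusted p over all single samples left out was 0.0349. Without DMSO 24 h replicate 2 it was 1.80 and 2.01. With WS1442 the call was also lost without WS1442 24 h replicate 1 (0.91, adjusted p = 0.0635) or replicate 2 (0.96, adjusted p = 0.0552). The same call was lost with only the arrays of 24 h (adjusted p = 0.0701), with no filter on dim probes (0.0606) and with eBayes without trend (0.0502).

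Jdp2, which can hold AP-1 and ATF sites in a repressed state, fell with both treatments at 24 h. It was at 8.02 and 8.00 with DMSO, 7.50, 7.54 and 7.53 with WS1442 and 7.45, 7.50 and 7.44 with MeOH eluate. Every treated sample lay below both DMSO samples. Jdp2 differed by -0.49 with WS1442 (adjusted p = 0.00215) and by -0.55 with MeOH eluate (adjusted p = 0.000911). At 6 h its samples lay between 6.40 and 6.74 in all groups and overlapped. Its neighbour Fos was at 9.35 and 9.83 with DMSO, 9.88, 9.92 and 10.23 with WS1442 and 9.67, 9.76 and 9.69 with MeOH eluate at 24 h. The difference of Fos was 0.42 with WS1442 (0.10 to 0.73, adjusted p = 0.0563) and 0.11 with MeOH eluate (-0.21 to 0.43, adjusted p = 0.715). For Fos with WS1442 it was 0.66 without DMSO 24 h replicate 2 (adjusted p = 0.0106) and 0.17 without replicate 1 (adjusted p = 0.581).

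Jun was at 12.67 and 12.93 with DMSO, 12.98, 13.04 and 12.92 with WS1442 and 12.80, 12.95 and 12.75 with MeOH eluate at 24 h, and the groups overlapped. The difference was 0.18 with WS1442 (0.02 to 0.35, adjusted p = 0.0999) and 0.04 with MeOH eluate (-0.13 to 0.20, adjusted p = 0.836). For Jun with WS1442 it was 0.31 without DMSO 24 h replicate 2 (adjusted p = 0.016) and 0.06 without replicate 1 (adjusted p = 0.761). Fosb differed by -0.15 (-0.53 to 0.23) and -0.07 (-0.45 to 0.31). Batf3, known from dendritic cells, was at 5.77 and 6.41 with DMSO and at 6.14 to 6.46 in treated samples, a difference of 0.07 (-0.25 to 0.39) and 0.26 (-0.06 to 0.58). The direction of Batf3 with MeOH eluate turned with the DMSO sample left out, from 0.58 without DMSO 24 h replicate 2 (adjusted p = 0.0091) to -0.06 without replicate 1 (adjusted p = 0.898), and with WS1442 from 0.39 to -0.25 (adjusted p = 0.0523 and 0.28).

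The growing rise of Atf3 was set against the same quantity in its partners, the effect at 24 h minus the effect at 6 h. This quantity compares effects against DMSO and does not say how the signal of any group moved between the times. The effect on Fosl1, like that on Atf3, was higher at 24 h, by 0.81 for WS1442 (SE 0.14, adjusted p = 0.00381) and by 0.67 for MeOH eluate (adjusted p = 0.00891). The effects on Jun and Jund moved the other way with MeOH eluate. With MeOH eluate the effect on Jun was smaller at 24 h, with a difference of -0.66 (adjusted p = 0.00136), and so was that on Jund, with -0.70 (adjusted p = 0.000254). With WS1442 the difference was -0.31 for Jund (adjusted p = 0.0418) and -0.28 for Jun (adjusted p = 0.113), and with 75th percentile scaling it was -0.49 for both (adjusted p = 0.00976 and 0.018). Jdp2 differed by -0.57 (adjusted p = 0.0158) and -0.70 (adjusted p = 0.00503). Of the 9 genes other than Atf3, 1 passed with a positive and 2 with a negative difference with WS1442, where 12.6% of all genes passed (5.73% positive, 6.92% negative). With MeOH eluate 1 passed with a positive and 3 with a negative difference, where 7.74% of all genes passed (3.91% positive, 3.83% negative).

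Of the 7 calls in this comparison 4 were kept whichever single sample was left out, those of Fosl1 with WS1442 and of Jun, Jund and Jdp2 with MeOH eluate. For Jund with WS1442 the difference was -0.21 (adjusted p = 0.214) without DMSO 6 h replicate 1, and the call was lost in 8 further cases with another sample of any group left out (adjusted p = 0.0524 to 0.0929). For Jdp2 with WS1442 it was lost without DMSO 6 h replicate 1 (adjusted p = 0.0685) or DMSO 24 h replicate 1 (adjusted p = 0.0595), and for Fosl1 with MeOH eluate without DMSO 6 h replicate 1 (adjusted p = 0.0531). With all samples the call of Jund with WS1442 was lost with no filter on dim probes (adjusted p = 0.0718) and with eBayes without trend (adjusted p = 0.0902). Junb differed by 0.30 (adjusted p = 0.14) and 0.34 (adjusted p = 0.117). Fosl2 differed by 0.68 and 0.64. It passed without DMSO 24 h replicate 2 (1.51 and 1.47), and without DMSO 24 h replicate 1 the direction turned (-0.16 and -0.19, adjusted p = 0.519 and 0.423).

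**Figure D3:**
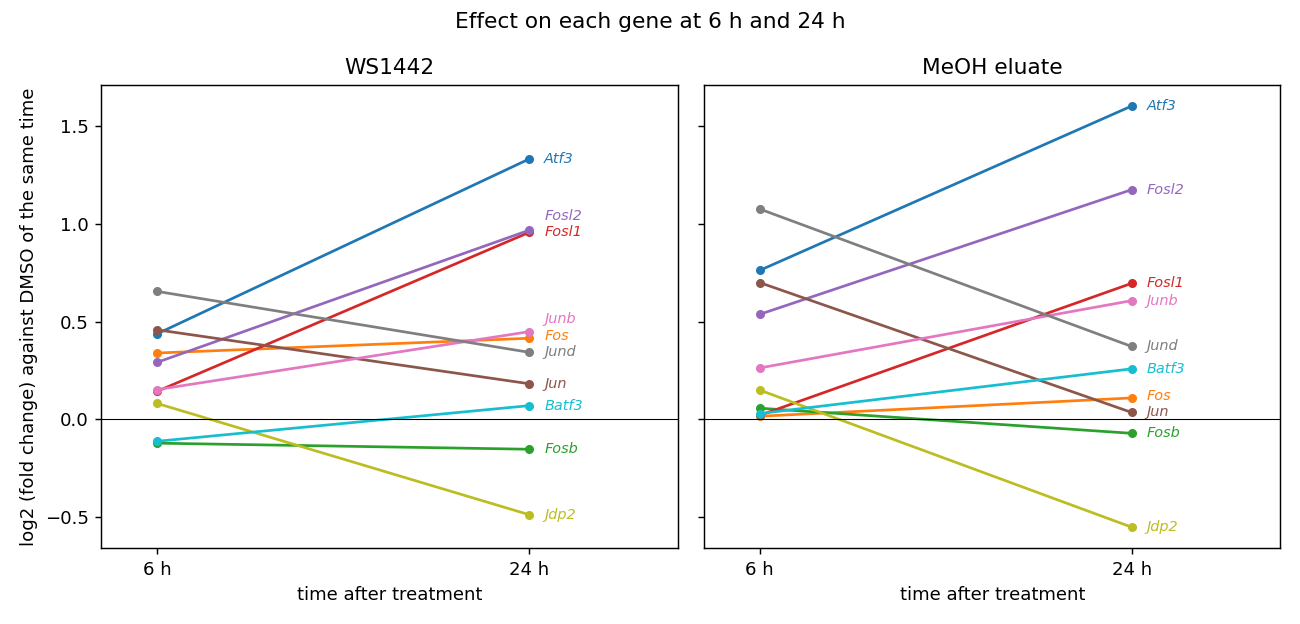
Log2 (fold change) against the DMSO samples of each time (vertical axis) at 6 h and 24 h for each of the 10 genes, with WS1442 (left) and MeOH eluate (right). Lines join the fitted values of 1 gene: those of Atf3 and Fosl1 go up, those of Jun, Jund and Jdp2 go down, and that of Fosl2 rests on 1 DMSO sample of 24 h. A line shows the effect against DMSO, not the signal itself.

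The treatments were compared directly in 20 tests, 10 genes at 2 time points, with p-values adjusted over all genes tested. At 6 h 3 members were higher with MeOH eluate than with WS1442, where 12.1% of all genes passed, 4.8% higher and 7.34% lower. Without a test, 5 members lay above the WS1442 samples and 1 below, where 30.9% of all genes did not overlap. Besides Atf3 these were Jund, by 0.42 (adjusted p = 0.000674), and Jun, by 0.24 (adjusted p = 0.0356). The call of Jun was lost with 75th percentile scaling (0.10, adjusted p = 0.427) and without each of WS1442 6 h replicates 2 and 3 and the 3 MeOH eluate samples of 6 h (0.19 to 0.26, adjusted p = 0.073 to 0.129). It was also lost with no filter on dim probes (adjusted p = 0.0674) and with eBayes without trend (adjusted p = 0.0758). At 24 h Atf3 alone passed among the members, where 14.6% of all genes did (7.41% higher, 7.16% lower), while 3 members lay above and 2 below without overlap, as did 36% of all genes. For Fosl1 the difference of MeOH eluate minus WS1442 at 24 h was -0.26 (-0.46 to -0.07, adjusted p = 0.0708), for Jund 0.03 (-0.10 to 0.16) and for Jdp2 -0.06 (-0.25 to 0.12). For Fos it was -0.32 (-0.61 to -0.04, adjusted p = 0.128) at 6 h and -0.31 (-0.59 to -0.02, adjusted p = 0.15) at 24 h.

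Genes around AP-1 were followed in lists written from general knowledge, but with earlier results of these data known. The counts are read against the shares of all genes. At 6 h 4.15% of all genes rose and 1.46% fell with WS1442, and 8.65% rose and 8.37% fell with MeOH eluate. At 24 h these shares were 12.9% and 11.8% with WS1442, and 9.62% and 8.58% with MeOH eluate. The list of the JNK and p38 cascade, the kinases that activate Jun and ATF proteins and the phosphatases that switch them off, had all of its 23 genes tested. With WS1442 8 of them rose and 0 fell at 6 h, and 8 rose and 3 fell at 24 h. With MeOH eluate 7 rose and 0 fell at 6 h, and 10 rose and 3 fell at 24 h. Dusp8, a phosphatase of JNK and p38, rose by 0.75 and 1.33 with WS1442 and MeOH eluate at 6 h and by 1.58 and 1.24 at 24 h (adjusted p = 0.00278, 3.26e-06, 1.95e-06 and 4.07e-06). Dusp10, with the same substrates, rose by 0.67 and 1.02 at 6 h and by 0.55 and 0.46 at 24 h. Dusp1 and Dusp16, named after their values were seen, complete the 4 phosphatases of the list. Dusp1 rose by 0.31, 0.93, 0.76 and 0.74 and Dusp16 by 0.28, 0.47, 0.40 and 0.52 in the same order. The JNK genes Mapk8 and Mapk9 and the p38 gene Mapk14 lay between -0.17 and 0.14 and did not pass in any of these comparisons. The 3 genes that fell at 24 h were Map2k6 and Map2k3 with both treatments, Map3k11 with WS1442 and Map3k1 with MeOH eluate. Their differences were -0.27 to -0.41.

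The list of ATF4 and CHOP stress genes, the amino acid and endoplasmic reticulum stress branch that can induce Atf3, held 17 genes. At 6 h 1 rose and 2 fell with WS1442 (4.15% and 1.46% of all genes), and 2 rose and 4 fell with MeOH eluate (8.65% and 8.37%). At 24 h 3 rose and 6 fell with each treatment. The shares of all genes were 12.9% and 11.8% with WS1442 and 9.62% and 8.58% with MeOH eluate. Whether this branch took part in the rise of Atf3 was not tested. Chac1, which degrades glutathione, differed by -0.49 and -1.47 at 6 h and by -0.59 and -1.93 at 24 h with WS1442 and MeOH eluate (adjusted p = 0.0317, 2.24e-06, 0.00305 and 1.4e-07). Trib3, a pseudokinase induced by CHOP, differed by -1.11 and -1.97 at 24 h (adjusted p = 8.52e-05 and 3.44e-07), and differed by 0.29 and -0.09 at 6 h (adjusted p = 0.272 and 0.718). Vldlr, a lipoprotein receptor, differed by -0.45, -0.89, -0.73 and -1.46 and passed each time. Atf4 itself differed by 0.05 and 0.06 at 6 h and by -0.33 and -0.37 at 24 h (adjusted p = 0.0834 and 0.0699). Ddit3, which encodes CHOP, differed by 0.18, 0.47, 0.22 and 0.13 and passed with MeOH eluate at 6 h (adjusted p = 0.0435). Ddit4, named after its values were seen, rose in each comparison, by 0.51, 0.75, 0.44 and 0.39.

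Of the 24 textbook AP-1 target genes 18 were tested. With WS1442 2 rose and 2 fell at 6 h (4.15% and 1.46% of all genes), and 6 rose and 0 fell at 24 h (12.9% and 11.8% of all genes). With MeOH eluate 5 rose and 4 fell at 6 h (8.65% and 8.37% of all genes), and 4 rose and 2 fell at 24 h (9.62% and 8.58% of all genes). Ccl2, a chemokine that attracts monocytes, rose by 0.98 and 2.52 at 6 h and by 1.04 and 1.45 at 24 h (adjusted p = 0.00524, 2.68e-07, 0.000505 and 3.04e-05). Vim, an intermediate filament of mesenchymal cells, rose by 0.21, 0.37, 0.35 and 0.40. Ccnd1, which drives entry into the cell cycle, differed by -0.30 and -0.74 at 6 h and by -0.29 with MeOH eluate at 24 h and passed. Itga5, an integrin of the fibronectin receptor, was the other gene that fell with WS1442 at 6 h. Tgfb1, a growth factor, fell with MeOH eluate, with differences of -0.84 at 6 h and -0.49 at 24 h. Vim, Ccnd1, Itga5 and Tgfb1 were named after their values were seen. Mmp1a, Mmp3 and Mmp13, collagenases and a stromelysin often used as AP-1 readouts, did not pass the filter on dim probes.

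**Figure D4:**
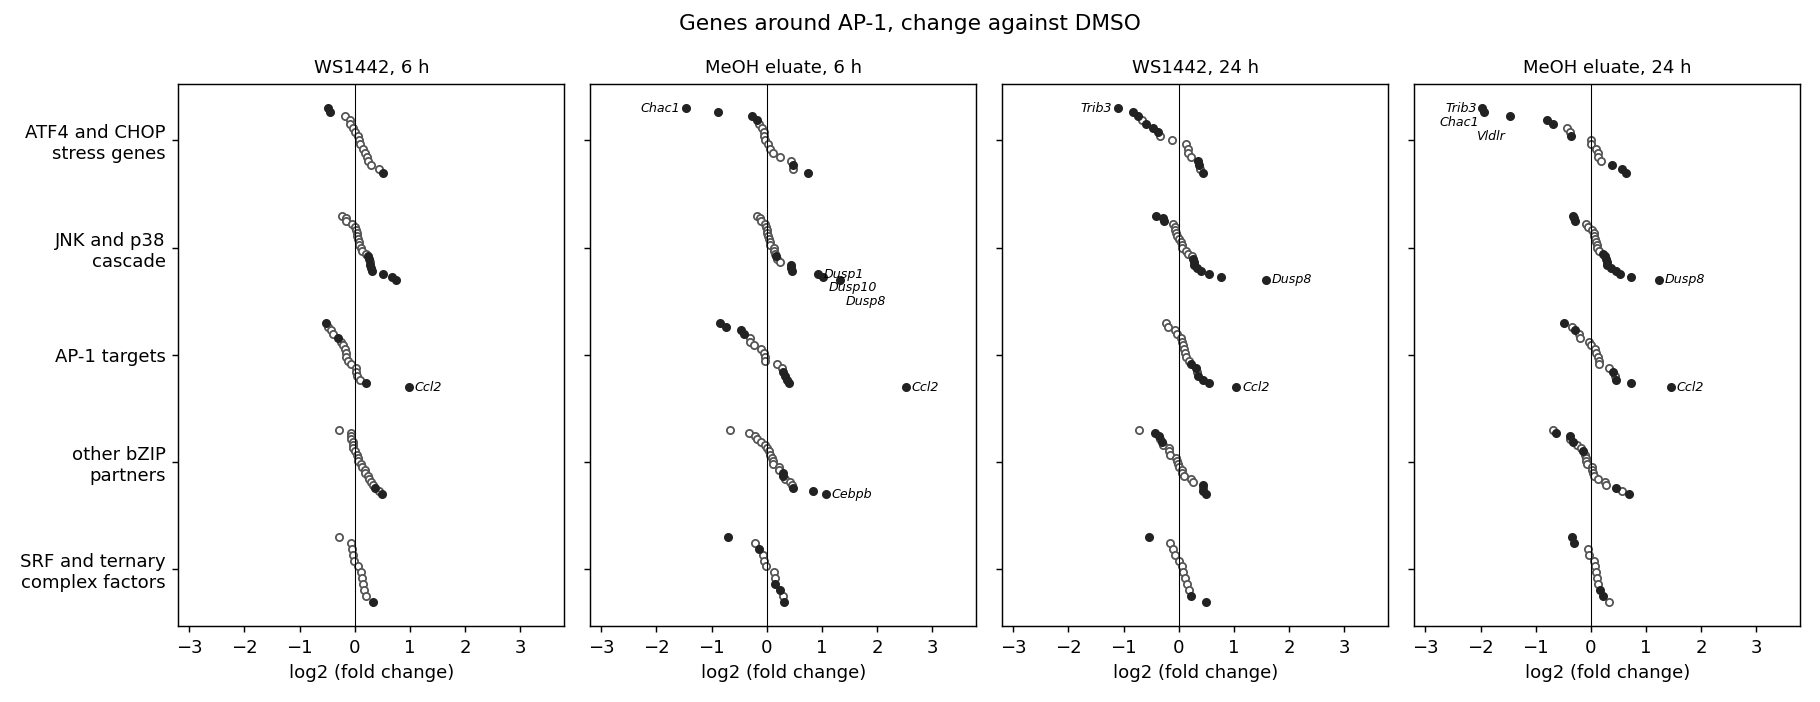
Log2 (fold change) against DMSO (horizontal axis) of every tested gene in 5 lists around AP-1 (rows), for each treatment and time point. Within a list the genes are sorted by value, filled points passed an adjusted p of 0.05, and Dusp8, Ccl2 and, to the left, Chac1 and Trib3 stand out.

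Of 23 further bZIP genes 22 were tested. With WS1442 2 rose and 0 fell at 6 h (4.15% and 1.46% of all genes), and 3 rose and 3 fell at 24 h (12.9% and 11.8% of all genes). With MeOH eluate 5 rose and 0 fell at 6 h (8.65% and 8.37% of all genes), and 2 rose and 4 fell at 24 h (9.62% and 8.58% of all genes). Cebpb, a C/EBP factor active in inflammation and fat cell formation, rose by 0.49 and 1.06 at 6 h and by 0.45 and 0.45 at 24 h (adjusted p = 0.00908, 3.33e-06, 0.003 and 0.00296). With MeOH eluate its effect at 24 h minus that at 6 h was -0.61 (adjusted p = 0.00952). Atf2, a usual partner of Jun, differed by -0.01 to 0.02. Maf, which also binds an extended AP-1 element, rose by 0.83 at 6 h and by 0.70 at 24 h with MeOH eluate, and by 0.43 at 24 h with WS1442. Nfe2l2 (NRF2) rose at 6 h, by 0.37 and 0.28, and its effect at 24 h minus that at 6 h was -0.38 and -0.24 (adjusted p = 0.0144 and 0.131). Maf and Nfe2l2 were named after their values were seen. SRF and the ternary complex factors, which switch on Fos, had 12 of 13 genes tested. Of these 1 rose and 0 fell with WS1442 and 3 rose and 2 fell with MeOH eluate at 6 h, and 2 rose and 1 fell and 2 rose and 2 fell at 24 h. Srf itself rose by 0.50 with WS1442 at 24 h (adjusted p = 0.0053), a gene named after its value was seen.

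Among the annotated genes tested, the pattern most like that of Atf3 was that of Ndn, Syngr1, Cntfr, Nudt18 and Lrrc8a. Unnamed probes and genes with provisional names (Gm, LOC or Rik) were left out of this ranking. Likeness was the Pearson correlation over 16 arrays after subtraction of the DMSO mean of each time, and was 0.984 to 0.986 for these 5. Among the members it was 0.938 for Junb, 0.841 for Fosl1 and 0.83 for Fosl2, 0.525 for Batf3 and 0.32 for Fos. It was 0.223 for Jund, -0.047 for Jun, -0.198 for Fosb and -0.784 for Jdp2. The arrays share groups and DMSO means, so these values describe the pattern and carry no test. Nudt18 rose by 0.26 and 0.41 at 6 h and by 0.85 and 1.21 at 24 h, and Cntfr, a cytokine receptor, differed by 0.30, 0.66, 0.95 and 1.17 in the same order. The other 3 lay between 0.08 and 0.72.

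Markers of other cell types moved with the treatments in the same samples, and a summed signal can be set by 1 bright gene, so that each sum is given with the genes that passed. These counts too are read against the shares of all genes given with the lists. The summed signal of 6 early mesoderm markers at 6 h was 11.56 to 11.60 with DMSO, 10.90 to 11.02 with WS1442 and 10.06 to 10.24 with MeOH eluate (log2). Of these genes 0 rose and 2 and 4 fell. Mixl1, a gene of the primitive streak, differed by -0.99 and -2.39. At 24 h the sums were 11.12 to 11.18, 10.76 to 10.83 and 10.34 to 10.38, and again 0 rose and 2 and 4 fell. The sum of 7 cardiac markers at 24 h was 10.32 to 10.35, 9.99 to 10.15 and 9.39 to 9.63, with 1 higher and 3 lower with WS1442 and 0 higher and 4 lower with MeOH eluate.

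The sum of 6 endothelial markers at 24 h was 11.53 to 11.54, 10.76 to 10.79 and 9.92 to 10.07, but 1 and 2 of the genes fell and the medians of the 6 differences were -0.04 and -0.08. Etv2, a factor of early endothelial and blood precursors, differed by -1.04 and -2.52, and Cdh5, the second gene that fell with MeOH eluate, was well above background there in 0 of 3 samples. Blood markers (6 genes) were at 9.32 to 9.37, 8.79 to 8.84 and 8.44 to 8.81 at 24 h. With WS1442 1 of them fell, and with MeOH eluate 1 rose and 1 fell. Tal1, a regulator of blood formation, differed by -1.19 and -1.89, whereas the embryonic globin gene Hbb-bh1 rose by 1.45 with MeOH eluate, where 1 of 2 DMSO samples was well above background.

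Mesenchyme markers (4 of 6 tested) were at 15.74 to 15.98 over all samples of 6 h and at 15.33 to 15.74 at 24 h. At 24 h 1 rose and 3 fell with WS1442, and 1 rose and 2 fell with MeOH eluate. Col1a1, a collagen chain, differed by -1.09 and -1.13 and Tagln, a smooth muscle gene, by 0.24 and 0.44. Endoderm markers (3 of 6) were at 9.67 to 10.10 and 9.96 to 10.43. With MeOH eluate at 6 h 0 rose and 2 fell. At 24 h 1 rose and 1 fell with WS1442, and 0 rose and 1 fell with MeOH eluate. The endoderm sums at 24 h were 10.16 to 10.26 with DMSO, 10.22 to 10.43 with WS1442 and 9.96 to 10.20 with MeOH eluate. Sox17, an endoderm factor, differed by -1.24 and -1.65 at 24 h. Pluripotency markers (6 genes) were at 13.75 to 13.85 at 6 h, where 2 fell with MeOH eluate, and at 13.02 to 13.24 at 24 h. Neuroectoderm markers (5 of 6) were at 9.83 to 10.28 and 9.61 to 9.99, and 2 and 1 of them rose at 24 h. The part of these shifts in the changes of Atf3 and the AP-1 genes was not tested.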

How the data were processed

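RNA of 16 samples was labelled with Cy3 and hybridised to 1-colour Agilent arrays. The authors deposited the intensities of every spot from Agilent Feature Extraction 11.5.1.1, background-corrected within the array, and a table of linear intensities after quantile normalization, which was used as an alternative. Spots marked non-uniform (3 to 25 per array) were set missing, probes were averaged, and log2 values were quantile normalized. A probe was kept if some group had all its arrays well above background (36718 probes), the brightest kept probe of a gene represented it, and 29272 genes with 25 missing values were tested. Of the probes, 33726 were named through RefSeq accessions (GRCm38.p6), 10643 by the file's symbol, and 15904 stayed unnamed. Unnamed probes were counted as genes under their own identifiers, also among the genes tested.

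A limma 3.58.1 fit (R 4.3.3, eBayes with trend) of 6 group means gave two-sided tests, adjusted by Benjamini-Hochberg over all genes, and 95% intervals. The study's methods name one-way ANOVA and the t-test in general, and for the arrays cite a published normalization work for normalization and statistics, done by the array service, without naming a test. The fit was tested on simulated data. Same-numbered samples were checked for pairing (14 pairs, correlation of deviations -0.235 to 0.305, 2 over 0.1). The deviations of 2 DMSO samples mirror each other, so the check cannot settle whether the numbers pair the samples. Alternatives were another scaling, background correction, filter, test, value source, a replicate block, the study's limits and each sample left out. Members, lists and the naming rule were chosen with earlier results of these data known. Beside the members, genes could be named from a list if they passed with a change over 2-fold, at most 6 per list. The 5 annotated genes most like Atf3 could be named as well. Python 3.11.15 and pandas 2.3.3 read the files and drew the figures. The number of arrays limits the precision.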

Additional observations from a re-analysis of the deposited data

Results flagged for a closer look

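The effect of a treatment differed between 6 h and 24 h, by a test of the difference itself, in 7 cases among Atf3's relatives. These values are the log2 effect at 24 h minus that at 6 h. With WS1442 it was 0.81 for Fosl1, -0.31 for Jund and -0.57 for Jdp2. With MeOH eluate it was 0.67 for Fosl1, -0.66 for Jun, -0.70 for Jund and -0.70 for Jdp2. Groups of 2 or 3 samples are too small for a test of single outlying samples.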

How the results depend on the processing

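No member changed direction while called, under any alternative. Atf3 was chosen for its rise, so its calls against DMSO within the counts below are no test. Members called, Atf3 included, in the order WS1442 and MeOH eluate against DMSO at 6 h, the same at 24 h, and MeOH eluate against WS1442 at 6 h and 24 h, were 3, 3, 6, 6, 3 and 1. With the methods' t-test after adjustment they were 0, 0, 2, 2, 0 and 0, and at the study's limits (over 2-fold, unadjusted p under 0.05) 0, 1, 1, 1, 0 and 0. With limma at these limits they were 0, 1, 1, 2, 0 and 0, and for the effect at 24 h minus 6 h 0 with WS1442 and 0 with MeOH eluate, against 4 and 5. Between the treatments, scaling to the 75th percentile left 1 at 6 h, and normexp background correction gave 2 at 24 h. The cause was not tested. Leaving out 1 sample gave 2 to 4, 3 to 5, 5 to 8, 6 to 7, 2 to 4 and 1, and 2 to 4 and 4 to 6 for the time differences (5 without either DMSO sample of 24 h for MeOH eluate at 6 h, 2 without DMSO 6 h replicate 1 for WS1442). All other counts, 60 under other settings and 125 without a sample, were within 1.5 times.

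The labels do not say whether the replicate numbers pair the samples. A replicate block called 555, 3401, 5320, 4055, 2695, 3536, 1957 and 1422 genes, against 1641, 4984, 7234, 5328, 3552, 4267, 3701 and 2266. With the block Fosl1 with MeOH eluate differed between the times by 0.63 (adjusted p = 0.0588), Jund with WS1442 by -0.30 (0.0919), and Fosl2 with WS1442 at 24 h had an adjusted p of 0.0523. Jun with WS1442 at 24 h passed with it (0.22, adjusted p = 0.0415). Normexp lowered the dim Fosl1 and Jdp2, whose time differences were 0.44 and -0.49 with MeOH eluate. With 75th percentile scaling the median log2 difference of all genes was -0.03 to 0 over the comparisons, against -0.02 to 0.05 with quantile normalization. Among Atf3's relatives only Jdp2 passed the adjusted t-test, at 24 h with both treatments. The 10 main probes were well above background on all arrays, yet the values of dim ones move with its correction.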
